A study of Mus musculus with 3 samples.

Results

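The Hox genes are homeobox transcription factor genes that lie in 4 clusters in the mouse genome. They were taken here as every gene in the deposited tables whose symbol is Hoxa, Hoxb, Hoxc or Hoxd followed by a number. This gave 39 of the 32285 genes, with 11 in the Hoxa, 10 in the Hoxb, 9 in the Hoxc and 9 in the Hoxd cluster. RNA of single cells from normal embryos of the ARC mouse strain was measured in 3 droplet libraries, made from the embryo at embryonic day 7.0 (E7.0) and E7.25 and from the posterior region at E7.5 (the posterior library, E7.5 posterior in the plots). Each stage is 1 library, so stage, dissected region and library cannot be told apart and no test between groups was possible. How many embryos went into a library is not given in the sources used here.

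Within a cluster all Hox genes point the same way on the DNA, and they are numbered from the 3′ end to the 5′ end. Genes of the same number in different clusters are paralogues. In the trunk of vertebrate embryos, genes at the 3′ end are known to be switched on earlier and to reach further towards the head than genes at the 5′ end, a property called collinearity. The first transcripts are known to appear in the posterior primitive streak, and the proteins bind DNA together with Pbx and Meis proteins.

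On GRCm38, in GENCODE release M21, the Hoxa cluster lies on chromosome 6, and the Hoxb cluster spans chromosome 11 from 96194316 to 96368256, Hoxc chromosome 15 from 102921103 to 103036852 and Hoxd chromosome 2 from 74668310 to 74765142. In 8 pairs of members the annotated genes overlap on the same strand, Hoxa3 with Hoxa4, Hoxa5 and Hoxa6, Hoxc5 with Hoxc6, Hoxc8, Hoxc9 and Hoxc10, and Hoxd3 with Hoxd4. Counts of these members are uncertain, because reads in the shared stretch could be assigned to either gene or dropped.

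Of the 39 members, 22 had a promoter window in RefSeq (GRCm38.p6), 250 bases before to 50 after a gene's start, in 24 windows. The windows of Hoxb1 and Hoxa2, which were high in Tbx6 positive cells, and of Hoxd1 and Hoxd9, which were high in Hand1 positive cells, are shown 5′ to 3′ along the gene. Capitals mark TGATNNAT on either strand, the letters of a composite site for Pbx and Hox proteins. They lie at chr11:96365508-96365807 on the plus strand (Hoxb1), chr6:52164782-52165081 on the minus strand (Hoxa2), chr2:74762730-74763029 on the plus strand (Hoxd1) and chr2:74697513-74697812 on the plus strand (Hoxd9).
Hoxb1: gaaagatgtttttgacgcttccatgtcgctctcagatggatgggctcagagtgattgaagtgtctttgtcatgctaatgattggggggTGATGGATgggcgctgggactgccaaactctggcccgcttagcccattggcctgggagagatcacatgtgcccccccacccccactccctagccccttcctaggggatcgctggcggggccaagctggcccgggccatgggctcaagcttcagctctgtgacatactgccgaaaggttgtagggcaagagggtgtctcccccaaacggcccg
Hoxa2: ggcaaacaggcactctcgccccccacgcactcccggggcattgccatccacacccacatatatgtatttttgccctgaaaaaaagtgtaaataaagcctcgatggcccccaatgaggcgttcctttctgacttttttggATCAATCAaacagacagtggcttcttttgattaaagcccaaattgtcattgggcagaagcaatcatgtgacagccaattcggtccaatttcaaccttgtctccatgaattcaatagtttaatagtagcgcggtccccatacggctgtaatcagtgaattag
Hoxd1: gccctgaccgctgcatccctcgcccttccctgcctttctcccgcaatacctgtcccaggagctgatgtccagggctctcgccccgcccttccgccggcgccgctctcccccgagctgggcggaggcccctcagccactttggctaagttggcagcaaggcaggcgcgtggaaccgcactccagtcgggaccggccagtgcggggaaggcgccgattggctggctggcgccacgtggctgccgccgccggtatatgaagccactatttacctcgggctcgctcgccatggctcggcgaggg
Hoxd9: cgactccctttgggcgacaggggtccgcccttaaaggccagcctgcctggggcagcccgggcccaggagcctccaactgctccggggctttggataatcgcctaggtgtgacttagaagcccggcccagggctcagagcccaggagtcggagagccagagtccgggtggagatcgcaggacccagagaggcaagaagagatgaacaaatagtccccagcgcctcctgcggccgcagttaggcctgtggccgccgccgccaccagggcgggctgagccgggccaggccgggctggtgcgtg

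The motif was present in 4 of the 24 Hox windows, those of Hoxa2, Hoxb1, Hoxb8 and Hoxd11 (16.7%), and in 8.85% of all 32851 windows of the same length. The windows of Hoxd1 and Hoxd9 did not hold these letters. AGGTCA, core letters of retinoid receptor sites, was in 7 Hox windows (29.2%) against 16.3% of all windows. TTTATG and TTTATA, core letters of Cdx sites, were in 5 (20.8%) and 4 (16.7%) Hox windows against 11.9% and 13.6%. The match is one of letters only, and the motifs were chosen after the levels were seen.

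The filters asked for at least 1000 genes detected in a cell and for no more than 10% of UMIs from mitochondrial genes, where a UMI (unique molecular identifier) counts 1 captured transcript. This left 7941 cells at E7.0, 5194 at E7.25 and 8438 in the posterior library, with 47672673 to 108350108 UMIs per library and a median of 8298 to 11295 UMIs per cell. Levels are CPM, the UMIs of a gene scaled to the total UMIs of the same cells. A single UMI came from 1 transcript end, so values were not divided by transcript length. Intervals are exact 95% Poisson limits for a level, conditional binomial limits for a ratio and Clopper-Pearson limits for a share. They cover counting error only and say nothing of the spread between embryos. Between 14 and 35 cell barcodes occurred in both libraries of a pair.

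Cells with 1 UMI or more of Sox2, of Tbx6 or of Hand1 were compared within each library. Sox2 marks the epiblast and later the neural plate, Tbx6 the paraxial mesoderm leaving the streak, and Hand1 lateral and extraembryonic mesoderm. There were 1544, 1142 and 1558 Sox2 positive cells in the E7.0, E7.25 and posterior libraries. Tbx6 positive cells numbered 764, 497 and 1427, and Hand1 positive cells 866, 1273 and 1416. The groups overlapped by 54 to 225 cells for any 2 markers. Leaving out Hand1 itself, 10 markers of lateral and extraembryonic mesoderm summed to 257 to 622 CPM in Hand1 positive cells and to at most 107 CPM in Tbx6 or Sox2 positive cells. Leaving out Tbx6, 10 markers of paraxial mesoderm summed to 434 to 673 CPM in Tbx6 positive cells and to at most 328 CPM in the others. At E7.0 that sum was 245 CPM in Hand1 positive cells, close to their 257 CPM of lateral and extraembryonic markers. Other lists were high as well. Leaving out Sox2, 8 epiblast and pluripotency markers summed to 3175, 2389 and 2730 CPM in Sox2 positive cells. Their sum was also 1275, 1218 and 1330 CPM in Tbx6 positive and 999, 909 and 1016 CPM in Hand1 positive cells. The 7 cardiac mesoderm markers summed to 1511, 939 and 625 CPM in Tbx6 positive and to 1252, 625 and 710 CPM in Hand1 positive cells. Mesp1 alone made up most of these sums, at 1321, 749 and 533 CPM in Tbx6 positive cells. In Hand1 positive cells Mesp1 was at 953, 364 and 489 CPM. Most of the rest was Myl7, at 158, 153 and 72.1 CPM in Tbx6 positive and 250, 187 and 165 CPM in Hand1 positive cells. The 8 primitive streak markers summed to 864, 775 and 865 CPM in Tbx6 positive cells. The groups are thus named by their marker gene and may hold several cell types. Sox2 and Hand1 are also expressed in trophoblast. Elf5, a trophoblast factor, was at 12.9, 42.3 and 2.32 CPM in Sox2 positive and at 22.5, 44.9 and 2.82 CPM in Hand1 positive cells in the E7.0, E7.25 and posterior libraries. Reference cells of visceral endoderm, described next, had Elf5 at 0, 0.908 and 0.26 CPM. The 9 trophoblast markers summed to 451, 977 and 296 CPM in Hand1 positive cells but to 1657, 1463 and 1570 CPM in the reference cells. Most of either sum was Krt8 and Rhox5, at 167, 507 and 240 CPM and at 234, 338 and 33.4 CPM in Hand1 positive cells. Their part in the Hox levels was not tested.

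As a background, 674, 778 and 364 visceral endoderm cells were taken from the same libraries. They had a UMI each of Cubn, Amn and Apob, genes of the absorptive epithelium that surrounds the embryo, and none of Sox2, Tbx6 or Hand1. The 7 visceral endoderm markers other than these 3 genes summed to 19947 to 21706 CPM there and to at most 913 CPM in the marker-positive cells. A member was said to be on in a group of cells at 1 CPM or more, with its lower limit above the upper limit in the reference cells of that library.

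Hoxb1 and Hoxb2, the genes at the 3′ end of the Hoxb cluster, were the first on and the most abundant Hox transcripts in all 3 libraries. Hoxb1 (ENSMUSG00000018973), needed for the identity of a hindbrain segment, was at 8.92 CPM at E7.0 (95% interval 8.37 to 9.51), 29.6 at E7.25 (28.1 to 31.2) and 73.5 in the posterior library (71.8 to 75.4). Hoxb2 (ENSMUSG00000075588), its neighbour with roles in hindbrain patterning, was at 5.11, 9.54 and 25.9 CPM. None of the 3 intervals of either gene overlapped. Hoxb1 was higher at E7.25 than at E7.0 by a log2 ratio of 1.73 (1.61 to 1.85) and in the posterior library than at E7.25 by 1.31 (1.23 to 1.40). The first step was smaller for Hoxb2, at 0.90 (0.72 to 1.08), and the second similar in size, at 1.44 (1.29 to 1.59).

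Hoxa2 and Hoxa3, in the 3′ part of the Hoxa cluster, followed the same order of libraries from a lower start. Hoxa2 (ENSMUSG00000014704), which patterns the second branchial arch, was at 0.231, 1.32 and 4.28 CPM, and Hoxa3, needed for thymus and parathyroid, at 0.00923, 0.21 and 1.47 CPM. Hoxa4 reached 0.193 CPM and Hoxa5 0.716 CPM in the posterior library. In that library the levels were thus lower gene by gene from Hoxa2 to Hoxa4, with Hoxa5 above Hoxa4. Hoxa6 had no UMI in any library, which allows 0.0277, 0.0629 and 0.0341 CPM at 3 UMIs.

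Of the members that reached 1 CPM, 2 peaked in the E7.25 library, at 2-fold or more above each of the others. Hoxb6 (ENSMUSG00000000690), an early gene of lateral mesoderm, was at 0.0461, 1.45 and 0.466 CPM, or 5, 69 and 41 UMIs. Hoxd9 (ENSMUSG00000043342), a gene nearer the 5′ end known for limb and lumbar patterning, was at 0.138, 3.04 and 1.21 CPM, or 15, 145 and 106 UMIs. From E7.25 to the posterior library the log2 ratios were -1.63 (-2.23 to -1.06) for Hoxb6 and -1.34 (-1.71 to -0.96) for Hoxd9. Hand1 positive cells were 24.5% of the kept cells at E7.25, against 10.9% at E7.0 and 16.8% in the posterior library, and held 66 of the 69 Hoxb6 and 128 of the 145 Hoxd9 UMIs at E7.25. Within Hand1 positive cells Hoxb6 was at 4.67 and 2.45 CPM and Hoxd9 at 9.06 and 5.09 CPM in the E7.25 and posterior libraries. Both were thus still lower in the posterior library within these cells, by less than 2-fold. What part the share of Hand1 positive cells has in the peak was not tested.

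**Figure D1:**
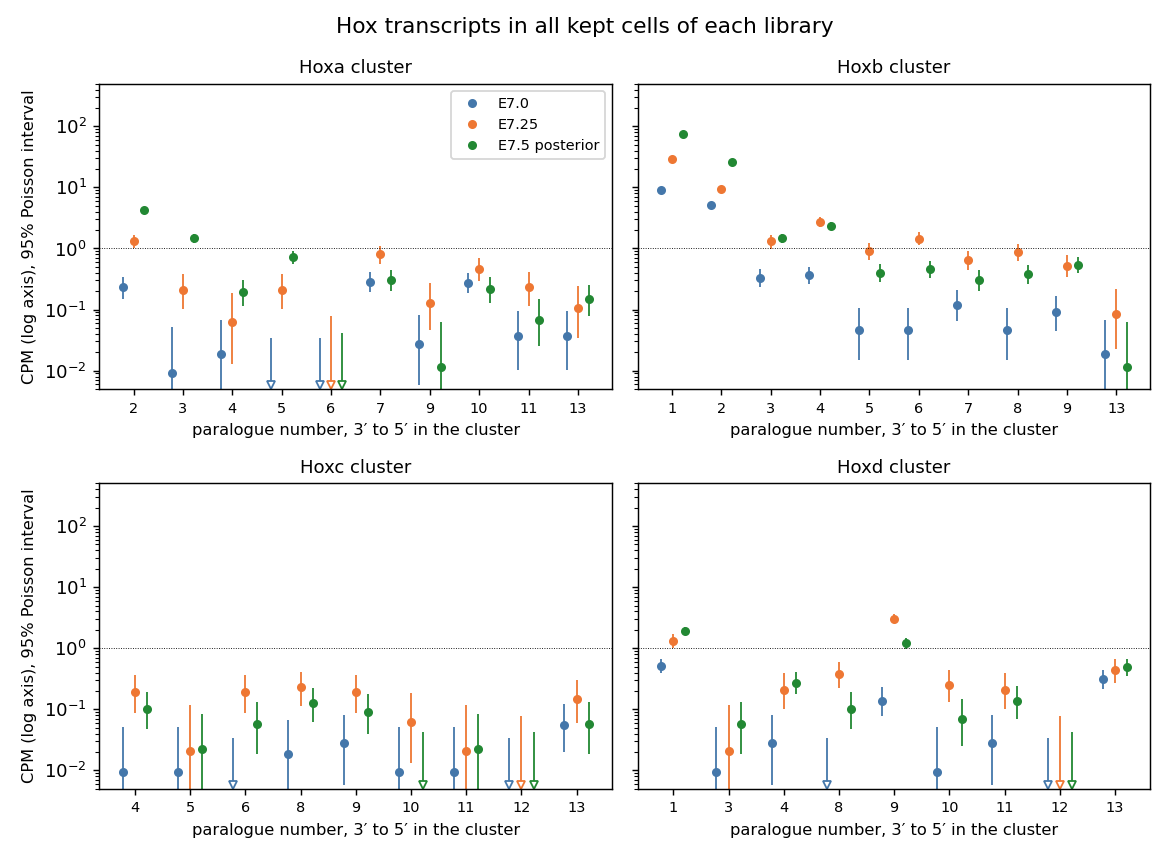
Level of Hox genes in all kept cells, as CPM on a log axis, by paralogue number in the 4 clusters. Points are the libraries, lines the 95% Poisson intervals, open triangles members with no UMI and the dotted line 1 CPM. Hoxb1 is highest in each library, at 8.92, 29.6 and 73.5 CPM, and Hoxd9 stands above its neighbours in the Hoxd cluster at E7.25, at 3.04 CPM.

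Between whole libraries a member was compared where it reached 1 CPM in at least 1 of them, and a difference was counted from 2-fold upwards. A member that passes this minimum through its higher library alone is likely to be counted, so the counts describe these libraries. From E7.0 to E7.25, 8 of 9 compared members were higher and 0 lower, Hoxb2 staying within 2-fold. Over all 12618 genes compared, 6.9% were higher and 1.85% lower. From E7.25 to the posterior library, 5 of 10 were higher (among them Hoxa2, Hoxa3, Hoxb1 and Hoxb2), 2 were lower (Hoxb6 and Hoxd9) and 3 were within 2-fold (Hoxb3, Hoxb4 and Hoxd1), against 1.64% higher and 5.83% lower of all genes. From E7.0 to the posterior library 9 of 9 were higher, against 2.79% of all genes, with 1.59% lower. The 3 comparisons share libraries. Without a minimum level, 28, 7 and 26 members would be counted as higher, and at a minimum of 5 CPM 2, 3 and 3. From E7.25 to the posterior library 15 members would be lower without a minimum, more than the 7 higher. Shares over all genes were not counted at these other minimums, so nothing is read from this balance. The members lost at 5 CPM are those between 1 and 5 CPM.

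The order of onset along each cluster was read from the rule given above. The rule was applied to Hox genes only, so these numbers have no share over all genes beside them. In whole libraries 2 members were on at E7.0 (Hoxb1 and Hoxb2). At E7.25, 8 were on, among them Hoxa2, Hoxb1, Hoxb2, Hoxb3, Hoxb6, Hoxd1 and Hoxd9. In the posterior library it was again 8, with Hoxb4 in place of Hoxb6. In the Hoxb cluster Hoxb6 was on at E7.25 without Hoxb4 or Hoxb5, and in the Hoxd cluster Hoxd1 and Hoxd9 were on without the 3 genes between them, Hoxd3, Hoxd4 and Hoxd8. No Hoxc gene was on, and the 9 together had 15, 50 and 42 UMIs.

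Members near the limit show how much the order rests on it. At E7.25 Hoxb3, at 1.30 CPM, was just inside, and Hoxb5 (0.902 CPM) and Hoxb8 (0.881 CPM) were just outside. Hoxb4, at 2.71 CPM, was not on at E7.25 because the visceral endoderm cells held more, at 3.78 CPM. At 0.5 CPM as the limit, 4 members were on at E7.0, and at 2 CPM 4 and 5 were on in the E7.25 and posterior libraries. With at most 5% mitochondrial UMIs the numbers were 4 and 3. The reference cells of these 2 libraries then numbered 299 in place of 778 and 45 in place of 364. The kept cells numbered 4615 in place of 5194 and 7300 in place of 8438. Which of these changes moved the numbers was not tested.

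Marker-positive cells differed first in how many Hox genes they had on. The rule was not applied to other genes, so whether this difference is particular to Hox genes was not tested. In Tbx6 positive cells 2, 6 and 6 members were on in the E7.0, E7.25 and posterior libraries, all of paralogue groups 1 to 4. These were Hoxb1 and Hoxb2 at E7.0, joined by Hoxa2, Hoxb3 and Hoxd1 among others at E7.25, with Hoxb4 in place of Hoxd1 in the posterior library. In Tbx6-only cells at E7.25 5 members were on, and Hoxd1 was not among them. Hoxb4 and Hoxd1 were each within 2-fold between the last 2 libraries in Tbx6 positive cells. In Hand1 positive cells the numbers were 5, 11 and 10. Hoxb1, Hoxb2, Hoxb3 and Hoxd1 were among those on at E7.0, and Hoxa2, Hoxa10, Hoxb5, Hoxb6, Hoxb8 and Hoxd9 beside these 5 at E7.25. In the posterior library Hoxb4 was on and Hoxa10 and Hoxb5 were not. Hoxb4 and Hoxb5 were within 2-fold between the last 2 libraries in Hand1 positive cells, so nothing is read from their change of call. Hoxb5 was on in the posterior library in Hand1-only cells and in Hand1 positive cells with Foxf1. In Sox2 positive cells 2, 3 and 3 members were on, Hoxb1 and Hoxb2 in each library. With at most 5% mitochondrial UMIs, the number in the posterior library was 3 in Tbx6 positive, 3 in Hand1 positive and 1 in Sox2 positive cells, against 45 reference cells.

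**Figure D2:**
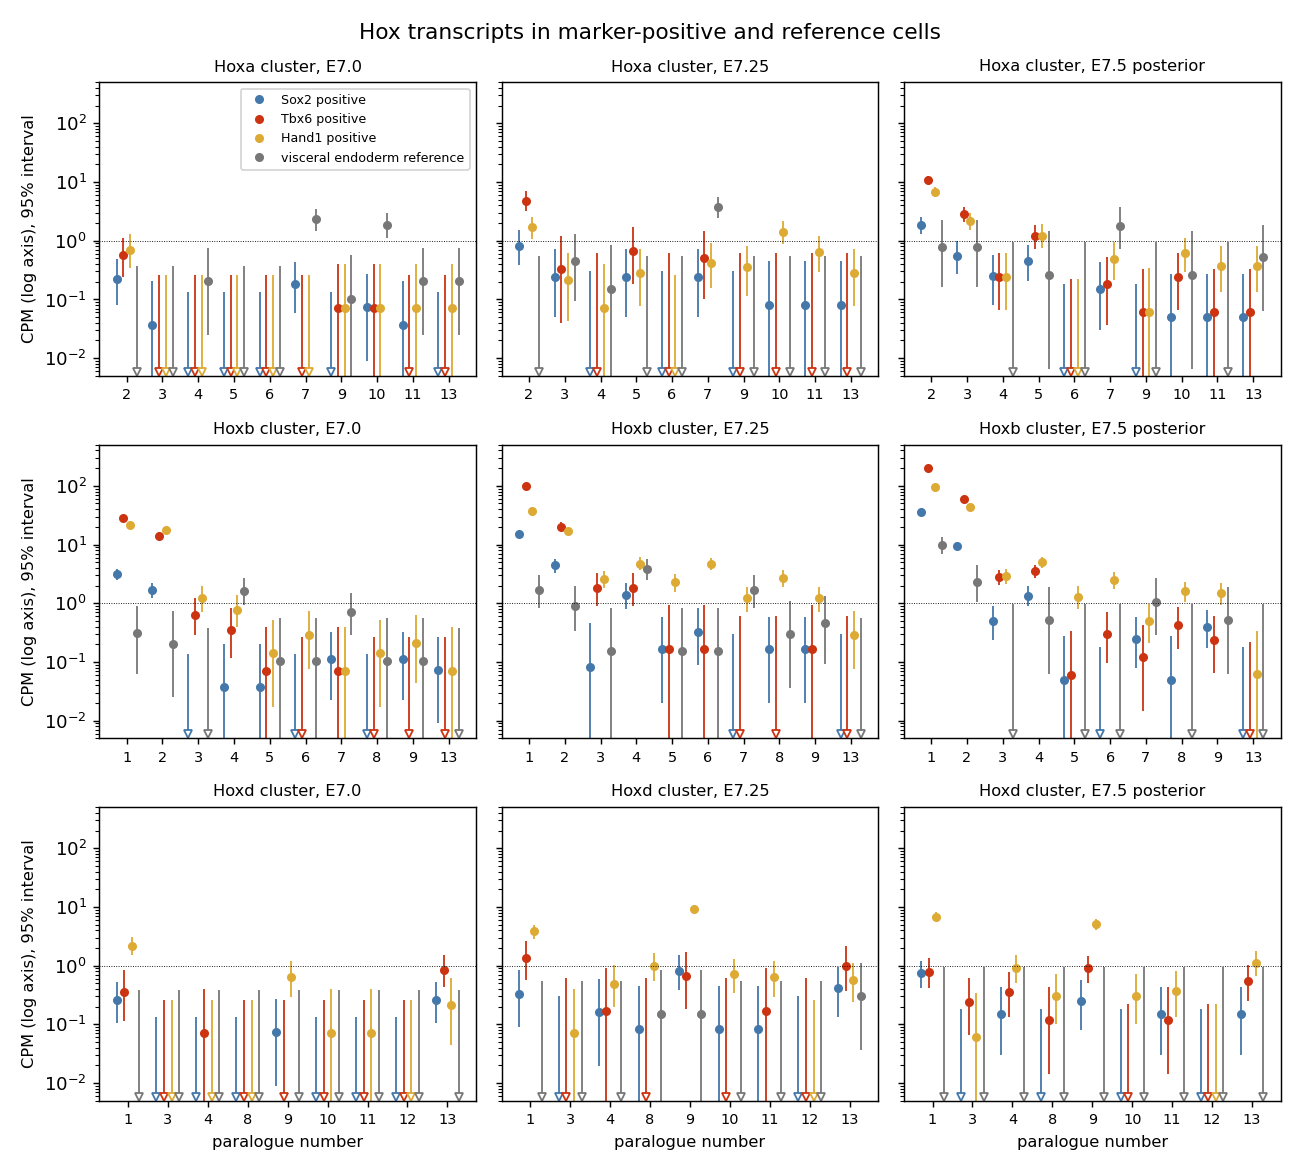
Level of genes of the Hoxa, Hoxb and Hoxd clusters (rows) in each library (columns), as CPM on a log axis by paralogue number, in Sox2, Tbx6 and Hand1 positive cells and in visceral endoderm reference cells. Lines are 95% Poisson intervals, open triangles are values of 0 and the dotted line is 1 CPM. Tbx6 positive cells lead at Hoxb1, at 198 CPM in the last column, and Hand1 positive cells at Hoxb6, Hoxb8, Hoxd1 and Hoxd9.

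Hoxb1 was highest in Tbx6 positive cells, at 28.4, 99.4 and 198 CPM in the 3 libraries, followed by Hand1 positive cells at 21.5, 37.4 and 95.9 CPM, Sox2 positive cells at 3.10, 15.1 and 36.0 CPM and reference cells at 0.307, 1.66 and 9.86 CPM. The order of the libraries was the same in the 4 groups of cells, and the intervals overlapped only in the reference cells, between E7.0 and E7.25. Hoxb2 was at 13.9, 20.1 and 59.4 CPM in Tbx6 positive and at 17.8, 17.1 and 43.8 CPM in Hand1 positive cells. At E7.0 Hoxb2 was thus higher in Hand1 positive cells, with intervals of 15.7 to 20.2 and 12.1 to 16.0 CPM that overlapped slightly, and in the posterior library in Tbx6 positive cells, with intervals that did not overlap.

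Hoxa2 was at 0.569, 4.83 and 11.0 CPM in Tbx6 positive and at 0.708, 1.70 and 6.81 CPM in Hand1 positive cells. Hoxb4 (ENSMUSG00000038692), studied for its effect on blood stem cells, was at 0.356, 1.83 and 3.54 CPM in Tbx6 positive and at 0.779, 4.74 and 5.03 CPM in Hand1 positive cells.

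Hoxd1 and Hoxd9 were high in Hand1 positive cells in the libraries where they were on. Hoxd1 (ENSMUSG00000042448), the 3′ gene of its cluster, was at 2.20, 3.82 and 6.87 CPM in Hand1 positive cells, at 0.356, 1.33 and 0.779 CPM in Tbx6 positive cells and at most 0.741 CPM in Sox2 positive cells. Hoxd9 was at 0.637, 9.06 and 5.09 CPM in Hand1 positive cells and at most 0.899 CPM in Tbx6 and 0.818 CPM in Sox2 positive cells. Reference cells held 0 UMIs of Hoxd1 in all 3 libraries and 1 UMI of Hoxd9 at E7.25. At E7.0 Hand1 positive cells held 9 of the 15 Hoxd9 UMIs.

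Along the Hoxa and Hoxd clusters the levels in Hand1 positive cells at E7.25 were not lower gene by gene from 3′ to 5′. From Hoxa2 at 1.70 CPM they went to 0.212 for Hoxa3 and 0.0708 for Hoxa4, and stood higher again at Hoxa10, with 1.42 (0.865 to 2.19), and Hoxa11, with 0.637 (0.291 to 1.21). In the Hoxd cluster Hoxd1 was at 3.82, Hoxd3 at 0.0708, Hoxd4 at 0.495, Hoxd8 at 0.991, Hoxd9 at 9.06, Hoxd10 at 0.708 and Hoxd11 at 0.637 CPM. The intervals of Hoxd9 (7.56 to 10.8) and Hoxd8 (0.542 to 1.66) did not overlap. These are levels of different genes by 3′ counting, and Hoxa3, Hoxa4 and Hoxd3 are among the members with overlapping neighbours.

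Cells positive for a single marker were then compared, so that no cell stood on both sides. Between Hand1-only and Tbx6-only cells the ratio ran along the Hoxb cluster. In the posterior library the log2 ratio was -1.30 (-1.41 to -1.19) for Hoxb1, -0.52 (-0.69 to -0.35) for Hoxb2, 0.15 (-0.60 to 0.91) for Hoxb3, 0.88 (0.29 to 1.5) for Hoxb4 and 4.46 (1.82 to 9.83) for Hoxb5. Hoxb6 had 35 UMIs in Hand1-only and 0 in Tbx6-only cells, so it was at least 12.2-fold higher. For Hoxb8 (20 against 1 UMI) the log2 ratio was 4.38 (1.74 to 9.76) and for Hoxb9 (18 against 2) 3.23 (1.17 to 6.38). The sign thus changed between Hoxb2 and Hoxb4.

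The same passage was seen at E7.25 as far as Hoxb8, with -1.73 (-1.95 to -1.51) for Hoxb1, -0.15 (-0.55 to 0.26) for Hoxb2, 0.60 (-0.55 to 1.92) for Hoxb3, 1.77 (0.55 to 3.27) for Hoxb4 and 3.50 (0.91 to 8.85) for Hoxb5. Hoxb6, with 62 UMIs against 0, was at least 7.81-fold higher and Hoxb8, with 38 against 0, at least 4.79-fold higher in Hand1-only cells. Hoxb7 was also at least 2-fold higher there, but Hoxb9, nearer the 5′ end, was within 2-fold. At E7.0 the ratio was -0.37 (-0.64 to -0.09) for Hoxb1 and 0.80 (0.45 to 1.15) for Hoxb2. Hoxb3 and Hoxb4 stood at 1.23 and 1.45 there with intervals that included 0.

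In the Hoxd cluster the ratio had no such order. Hoxd1, although a paralogue of Hoxb1, was higher in Hand1-only cells in each library, by log2 ratios of 3.94 (1.95 to 7.05), 2.57 (0.93 to 4.89) and 4.71 (3.31 to 6.61), with only 2 to 4 UMIs in Tbx6-only cells. Hoxd9 was higher there by 5.45 (2.95 to 10.8) at E7.25 and 4.57 (2.96 to 6.88) in the posterior library, with 1 and 3 UMIs in Tbx6-only cells. Hoxd13, at the 5′ end, was at -0.82 (-2.90 to 1.45) and 1.38 (-0.06 to 3.04) in these libraries, with intervals that included 0. Hoxa2 was lower in Hand1-only cells, at -2.03 (-3.27 to -0.85) and -0.84 (-1.28 to -0.41) in the last 2 libraries. A difference between libraries was not tested.

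**Figure D3:**
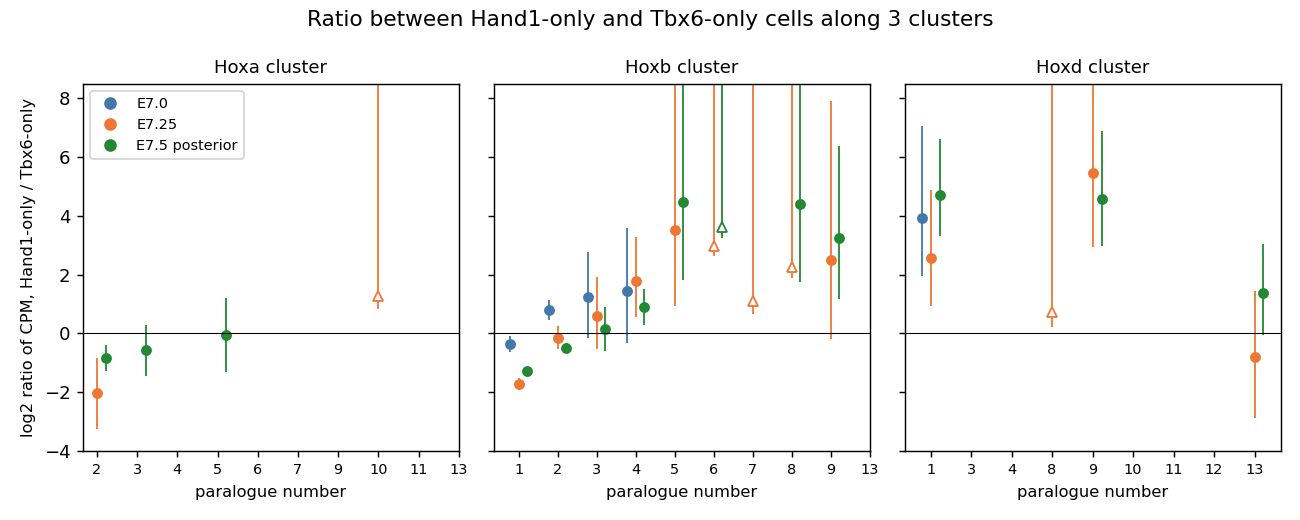
Log2 ratio of CPM in Hand1-only over Tbx6-only cells for members compared, by paralogue number in 3 clusters. Points are ratios with 95% conditional binomial intervals, cut at the upper edge of the axis, and open triangles mark lower bounds for members with no UMI in Tbx6-only cells. In the Hoxb cluster in the posterior library the ratio goes from -1.30 at Hoxb1 to 4.46 at Hoxb5, and Hoxd1 and Hoxd9 are positive at 4.71 and 4.57.

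Within cells of 1 marker the libraries were compared by the 2-fold rule. In Hand1 positive cells 11 of 14 compared members were higher at E7.25 than at E7.0, 0 being lower, against 8.8% and 2.85% of all genes, and Hoxb1, Hoxb2 and Hoxd1 were within 2-fold. Hoxb2 stayed level there, at a log2 ratio of -0.07 (-0.33 to 0.20), while Hoxb6, with 4.04 (2.62 to 5.96), and Hoxd9, with 3.83 (2.86 to 4.99), were far apart. From E7.25 to the posterior library 6 of 17 were higher (among them Hoxa2, Hoxa3, Hoxa5, Hoxb1 and Hoxb2) and 2 lower (Hoxa10 and Hoxb7), against 2.93% and 6.0% of all genes.

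In Tbx6 positive cells 6 of 7 compared members were higher at E7.25 than at E7.0, with 0 lower, against 8.79% and 3.01% of all genes, and 4 of 9 in the posterior library than at E7.25 (among them Hoxa2, Hoxa3 and Hoxb2), with 0 lower, against 3.9% and 4.7%. Hoxb1 was just under 2-fold in the latter, at 0.99 (0.87 to 1.12). In Sox2 positive cells 4 of 4 and then 4 of 5 were higher and 0 lower, with Hoxb4 within 2-fold in the later pair. Of all genes 6.8% and 2.34% were higher and 2.15% and 5.8% lower.

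In counts from 2-fold upwards, 4 of 6, 8 of 16 and 7 of 15 compared members were higher in Hand1-only than in Tbx6-only cells in the E7.0, E7.25 and posterior libraries, against 4.96%, 8.33% and 5.46% of all genes compared. Lower were 0, 2 (Hoxa2 and Hoxb1) and 1 (Hoxb1), against 3.08%, 5.89% and 4.09%. Against Sox2-only cells, 6 of 6, 15 of 15 and 15 of 15 were higher in Hand1-only cells, and 0 lower, beside 7.42%, 8.84% and 8.14% of all genes higher and 9.95%, 8.43% and 7.69% lower. In Tbx6-only cells 2 of 2, 6 of 7 and 8 of 8 were higher than in Sox2-only cells, and 0 lower, beside 5.29%, 6.92% and 6.48% of all genes higher and 9.89%, 8.96% and 7.52% lower. At a minimum of 5 CPM the Hand1 and Tbx6 comparison kept 0, 5 and 3 members, higher and lower ones counted together, the others being between 1 and 5 CPM. At E7.0 the count was 2 in place of 4 when cells over 30000 UMIs were left out.

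Sox2 positive cells held Hox transcripts partly through cells that carried another marker. The 58, 54 and 130 cells positive for both Sox2 and Tbx6 had Hoxb1 at 25.2, 70.7 and 184 CPM and a median of 28737.5, 13773.5 and 14614.5 UMIs per cell, more than the 13169.5, 8948.5 and 11193.5 of all Sox2 positive cells. Without the cells of the highest doublet scores the number of members on in Sox2 positive cells was again 2, 3 and 3. Sox2-only cells were at 1.26, 7.46 and 15.0 CPM of Hoxb1, and had 0, 2 and 0 members on. In the posterior library the lower limit of Hoxb1 there, 13.1 CPM, was just under the upper limit of the reference cells, 13.5 CPM. That limit came down to 6.85 CPM when the cells of the highest doublet scores were left out, since the reference cells then held 15 in place of 38 Hoxb1 UMIs. Hoxb1 was then on in Sox2-only cells of the posterior library, at 12.3 CPM (10.5 to 14.2), and the numbers on were 0, 2 and 1.

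The share of cells with a UMI was compared after each cell was thinned to 5000 UMIs, which left out 7.73% to 9.80% of kept cells as shallower. Marker and reference cells were taken again from the thinned counts. Hoxb1 was then found in 11.1% (7.75 to 15.2) of 298, 40.0% (34.3 to 45.9) of 285 and 55.5% (51.9 to 59.0) of 770 Tbx6 positive cells. In Hand1 positive cells the share was 8.98%, 14.4% and 32.6%, in Sox2 positive cells 0.395%, 3.10% and 7.66%, and in visceral endoderm cells 0.168%, 1.02% and 2.57%. Without thinning, all kept cells gave 7.33%, 14.7% and 29.7%, and with thinning 3.58%, 10.0% and 21.8%. At equal depth the Tbx6 and Hand1 positive cells thus had overlapping intervals at E7.0 and separate ones in the later libraries.

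Shares of 5′ members separated the cells in another way. A UMI of any member of paralogue groups 5 to 13 was found in 1.22% (0.451 to 2.65), 14.1% (11.9 to 16.5) and 8.37% (6.69 to 10.3) of Hand1 positive cells. In Tbx6 positive cells it was 0.671%, 2.46% and 1.82% and in visceral endoderm cells 3.35%, 3.79% and 2.89%, at median depths of 7842.5 to 12026 UMIs before thinning in the latter. The Tbx6 shares, and the Hand1 share at E7.0, are below those of the reference cells. These have Hoxa7 transcripts of their own, given further on, so their share is not a plain background and nothing is read from the lower ones. Hoxd9 alone was in 5.44% (4.07 to 7.09) of Hand1 positive cells at E7.25 and 3.45% (2.39 to 4.81) in the posterior library, against 0.146% and 0% of reference cells, the latter allowing up to 1.18%.

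**Figure D4:**
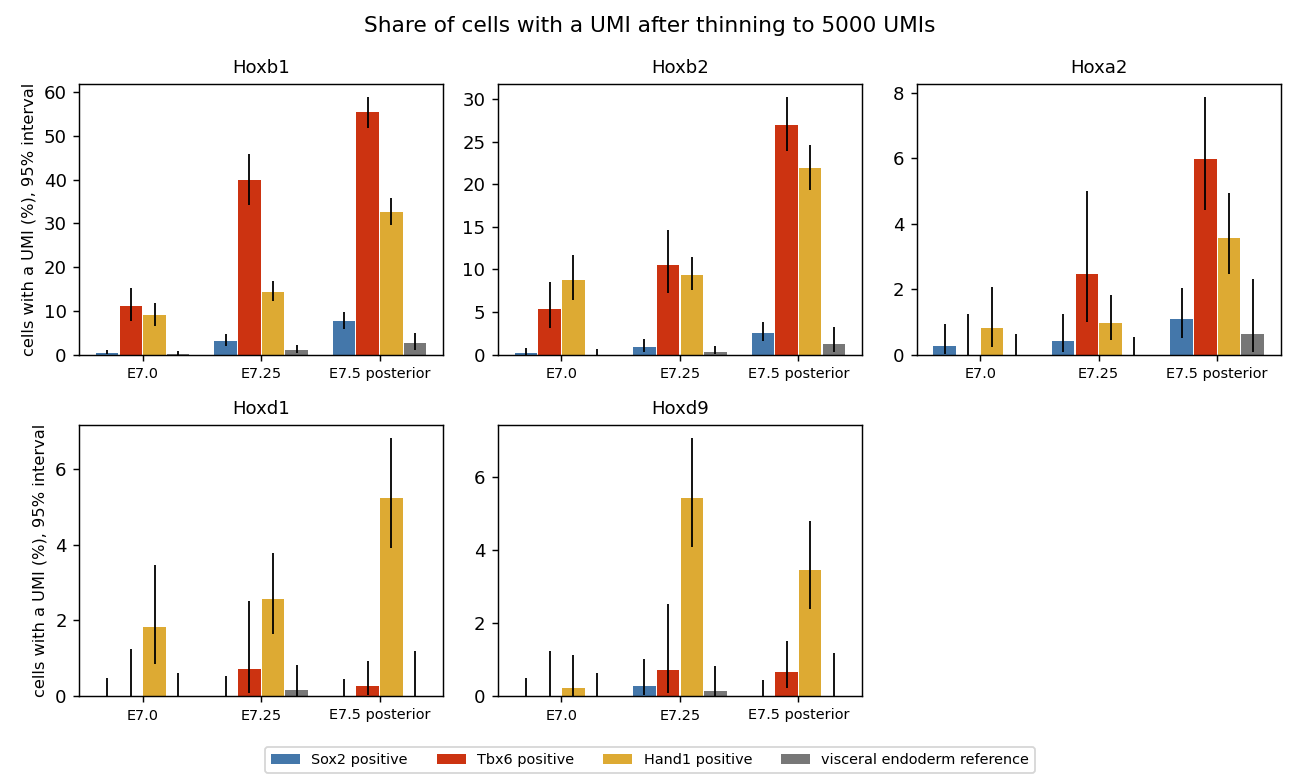
Share of cells with a UMI of 5 Hox genes in percent, by library, after thinning to 5000 UMIs per cell. Bars are Sox2, Tbx6 and Hand1 positive cells and visceral endoderm reference cells, lines the 95% Clopper-Pearson intervals. The Hoxb1 bar of Tbx6 positive cells reaches 55.5% in the posterior library, and the Hoxd1 and Hoxd9 bars are highest in Hand1 positive cells in each library. For Hoxd9 at E7.0 this is 1 cell of 490, with an interval that overlaps those of the other cells.

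The makeup of the Hox transcripts differed between the cells as well. Paralogue groups 1 to 3 gave 88.3%, 76.8% and 93.3% of all Hox UMIs in the 3 libraries, out of 1925, 3030 and 11562. In Tbx6 positive cells they gave 96.6%, 95.9% and 97.1%. In Hand1 positive cells they gave 93.5% (91.4 to 95.2), 66.6% (64.2 to 69.0) and 87.7% (86.6 to 88.8), with groups 9 to 13 at 3.62%, 15.3% and 5.01%. The trophoblast markers and Elf5 given above were also higher in Hand1 positive cells at E7.25 than in the other libraries. Hand1 positive cells with Foxf1, a gene of lateral and allantoic mesoderm, had Hoxd9 at 1.13, 11.7 and 7.75 CPM, and those without Foxf1 at 0.34, 7.16 and 2.97 CPM. The log2 ratios were 1.74 (-0.49 to 4.37), 0.71 (0.19 to 1.24) and 1.38 (0.70 to 2.10).

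Visceral endoderm reference cells had their own Hox transcripts. Hoxa7 had 23 of its 31 UMIs at E7.0 and 25 of 38 at E7.25 in these cells, each in a different cell. Hoxb4 had 16 of 40 and 25 of 129 there, and Hoxb7 7 of 13 and 11 of 31. Hoxa10 had 18 of 30 at E7.0, in 18 cells, but 0 of 22 at E7.25, when 20 were in Hand1 positive cells. Hoxa7 was thus at 2.36 and 3.78 CPM in reference cells and at most 0.499 CPM in marker-positive cells of these libraries. For these members the background cells raise the bar of the onset rule. Groups 4 to 8 gave 61.6% of the 86 Hox UMIs in reference cells at E7.0 and 67.9% of 106 at E7.25, whereas groups 1 to 3 gave 73.3% of 86 in the posterior library. Of these 86, 38 were Hoxb1, and 15 Hoxb1 UMIs were left without the cells of the highest doublet scores.

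Cells with 1 early Hox gene more often had another. In the posterior library, after thinning, 54.3% (50.9 to 57.7) of the 836 cells with Hoxb2 had Hoxb1 and 17.8% (16.9 to 18.7) of the rest. Within Tbx6 positive cells the shares were 67.3% (60.5 to 73.6) and 51.1% (46.8 to 55.3). Cells of 1 library are not replicates, and these shares describe the library.

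The remaining members stayed low. Of the 39, 3 had no UMI in any library (Hoxa6, Hoxc12 and Hoxd12), which for each allows at most 0.0629 CPM at the lowest depth. Hoxa9, Hoxa11, Hoxa13, Hoxb13, Hoxd3, Hoxd4, Hoxd8, Hoxd10 and Hoxd11 stayed under 1 CPM in each library and in Sox2, Tbx6 and Hand1 positive cells as a whole. In smaller groups of Hand1 positive cells at E7.25, Hoxd8 reached 1.41 CPM in Hand1-only cells, and Hoxa11 was at 1.36 CPM and on, Hoxd8 at 1.53 CPM and Hoxd10 at 1.02 CPM in those with Foxf1, on 6 to 9 UMIs each. Hoxd4 was at 1.10 CPM in those without Foxf1 in the posterior library. Hoxa3 reached 2.88 CPM in Tbx6 and 2.15 CPM in Hand1 positive cells of the posterior library, and Hoxa5 1.20 and 1.23 CPM, but neither was on against reference cells of that library, which held 3 UMIs of Hoxa3 and 1 of Hoxa5. Hoxa4 and Hoxa7 stayed under 1 CPM in Sox2, Tbx6 and Hand1 positive cells. Hoxb7 and Hoxb9 each reached 1.20 CPM in Hand1 positive cells at E7.25 without being on, and Hoxb9 was at 1.47 CPM in those of the posterior library, also not on. Hoxd13 had 34, 21 and 43 UMIs and reached 1.10 CPM in Hand1 positive cells in the posterior library, also without being on. Of the Hoxc genes Hoxc8 had the most, with 11 UMIs at E7.25 and in the posterior library, 10 and 8 of them in Hand1 positive cells. No other Hoxc gene had more than 9 UMIs in a library or more than 0.637 CPM in marker-positive cells.

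Genes that act on the Hox clusters were counted from lists by the same 2-fold rule. Of the Cdx genes, activators of Hox genes in the streak, 3 of 3 were higher at E7.25 than at E7.0 (6.9% of all genes were). Cdx1 was at 1.87, 5.10 and 14.7 CPM, Cdx2 at 11.0, 43.2 and 58.9 and Cdx4 at 0.0738, 4.26 and 2.57 CPM. They differed between the cells, Cdx1 being highest in Tbx6 positive cells, at 31.2 CPM in the posterior library, and Cdx4 in Hand1 positive cells, at 13.2 CPM at E7.25. Cdx2 was also at 36.3 to 57.1 CPM in the visceral endoderm reference cells.

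Of 9 genes for TALE proteins, the DNA partners of Hox proteins, 2 were higher at E7.25 than at E7.0 (Meis1 and Pknox2), 0 at least 2-fold apart between the last 2 libraries and 3 higher in the posterior library than at E7.0, against 6.9% and 2.79% of all genes higher in the first and the last of these. Meis2 was at 99.6, 132 and 205 CPM in Tbx6 positive cells. Of 11 compared genes of the retinoic acid pathway, 3 were higher and 1 lower from E7.0 to E7.25 and 2 higher from E7.25 to the posterior library, against 6.9% higher, 1.85% lower and 1.64% higher of all genes. Aldh1a2, which makes retinoic acid, was at 0.305, 5.01 and 22.1 CPM, and Cyp26a1, which degrades it, at 116, 28.4 and 26.4 CPM. Of 12 posterior signals and streak factors 2 were higher and 3 lower from E7.0 to E7.25, and 5 higher and 0 lower from E7.25 to the posterior library, among them Wnt3a at 1.97 and 6.09 CPM. Of all genes 6.9% were higher and 1.85% lower in the first pair, and 1.64% higher and 5.83% lower in the second.

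The 16 Polycomb and trithorax genes, whose proteins keep Hox chromatin silent or active, were all within 2-fold in each of the 3 library comparisons. Their median log2 ratio was 0.13, -0.01 and 0.05 from E7.0 to E7.25, E7.25 to the posterior library and E7.0 to the posterior library, beside 0.19, -0.08 and 0.07 over all genes compared. Of 11 noncoding RNAs of the clusters in the files, 3 reached 1 CPM and 3 of 3 were higher at E7.25 than at E7.0, against 6.9% of all genes. From E7.25 to the posterior library 1 of 3 was higher (Hotairm1) and 2 were within 2-fold, against 1.64% of all genes higher. Hotairm1, in the Hoxa cluster, was at 1.20, 3.84 and 18.2 CPM, Hoxb3os at 2.46, 13.3 and 9.09 CPM and Haglr, in the Hoxd cluster, at 1.39, 4.43 and 3.26 CPM. Haglr was at 10.3 CPM in Hand1 and 5.33 CPM in Tbx6 positive cells at E7.25. Hotair and Hottip had no UMI. Whether reads of antisense RNAs and of Hox genes can be told apart depends on the strand setting, which is not given in the sources used here. Of 9 compared cluster neighbours only Skap1, beside the Hoxb cluster, was at least 2-fold higher from E7.0 to E7.25, with 8 within 2-fold. Of all genes 6.9% were higher in that pair. From E7.25 to the posterior library Skap1 was lower and 8 were within 2-fold, against 5.83% of all genes lower.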

How the data were processed

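RNA of single cells was measured in 3 libraries of 1 sample each. The deposited values are raw UMI counts per gene and cell barcode in filtered matrices, which name Cell Ranger 6.0.1 per the file headers. For the genome build and the strand setting, the sources used here give nothing. Coordinates came from GENCODE M21 (GRCm38), where 32158 of 32285 gene identifiers were found and 127 were not.

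Cells with at least 1000 detected genes and at most 10% mitochondrial UMIs were kept, and doublets were kept too. Cells with the highest Scrublet scores (scanpy 1.11.5, 0.8% per 1000 cells) were left out as an alternative, since the automatic limit marked 111, 193 and 0 cells. UMIs were summed per library and group of cells and divided by total UMIs (CPM), with exact 95% limits from scipy 1.17.1. Members were called apart at 2-fold with 1 CPM in at least 1 group, and values of 3 UMIs or fewer were set to 3 for the call. TMM factors from edgeR 4.0.16 served as an alternative scaling. The calls and intervals were tested on simulated data. Hox genes at 5 CPM or more in a library or in marker-positive cells were to be described with their values. One such result is not reported here, although counts and sums over the members include it. The members and lists were chosen with earlier results of these data known. The split of Hand1 positive cells by Foxf1, the cells positive for Sox2 and Tbx6, the paralogue classes and the motifs were chosen after seeing the data.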

Additional observations from a re-analysis of the deposited data

Results flagged for a closer look

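Barcodes that the filters left out also held Hoxb1 UMIs above the limit that a count of 0 allows. At E7.0, 2291 such barcodes had 17 Hoxb1 UMIs of 2659926, or 6.39 CPM. At E7.25, 979 barcodes had 10 of 1163599, or 8.59 CPM, and in the posterior library 3030 barcodes had 170 of 4249495, or 40.0 CPM. The kept cells were at 8.92, 29.6 and 73.5 CPM. What these barcodes contain was not tested.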

How the results depend on the processing

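No alternative turned the direction of a called ratio between whole libraries. The direction of ratios between marker-positive cells was not followed under the alternatives. Of the numbers of members 2-fold apart, 53 of 60 alternative values between libraries and 69 of 81 between marker-positive cells stayed within 1.5 times, as did 22 of 27 and 102 of 114 of the numbers of members on in libraries and in marker-positive cells. Of the log2 ratios of members between libraries, 6 of 224 moved out of their interval. Shares of cells moved with the depth they were thinned to in 39 of 42 values. With at most 5% mitochondrial UMIs, 4 members were on at E7.25 and 3 in the posterior library (8 each), 1 in Sox2 positive cells of either library (3), and 3 in Tbx6 (6) and 3 in Hand1 positive cells (10) in the posterior library, with 299 and 45 reference cells. With a limit of 0.5 CPM 4 members were on at E7.0 (2). At 2 CPM 4 and 5 were on in the E7.25 and posterior libraries, and 1 in Sox2 positive cells at E7.0. Sox2 positive cells had 5 on in the posterior library without the reference criterion, 0 and 1 at E7.0 and E7.25 with 2 marker UMIs, and 0 in the E7.0 and posterior libraries without cells of several markers. Without these and the highest doublet scores, chosen after seeing the data, 0 and 1 were on.

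With no minimum CPM, 28 members were higher at E7.25 than E7.0 (8), 15 lower in the posterior library than E7.25 (2) and 26 higher in the posterior library than E7.0 (9). At 5 CPM these were 2, 0 and 3, and 3 were higher in the posterior library than E7.25 (5). Between single-marker cells, no minimum gave 7 for Tbx6 against Sox2 at E7.0 (2), and 23 for Hand1 against Sox2 (15) and 13 for Hand1 against Tbx6 (8) in the posterior library. At 5 CPM, Tbx6 against Sox2 gave 2 at E7.25 (6) and 4 in the posterior library (8), Hand1 against Sox2 gave 2, 7 and 7 in the 3 libraries (6, 15 and 15), and Hand1 against Tbx6 gave 0, 5 and 3 (4, 10 and 8). Without cells over 30000 UMIs, Hand1 against Tbx6 at E7.0 gave 2 (4). Shares over all genes were counted in the main setting only. The share of cells with Hoxb1 was 2.30%, 6.52% and 15.9% thinned to 3000 UMIs and 7.33%, 14.7% and 29.7% unthinned (3.58%, 10.0% and 21.8%).

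No paired analysis was possible because each group is 1 library and the labels carry no replicate numbers. At 3 UMIs the depth sets a limit of 0.0277 to 0.0629 CPM per library. No interval covers the spread between embryos.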
